A study of Rattus norvegicus with 8 samples.

Results

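The Wnt pathway genes described here were the ligands, receptors, inhibitors and signal carriers of Wnt signalling in the hippocampus of adrenalectomized rats, with and without an infusion of corticosterone. They were chosen by gene symbol (the Wnt, Fzd, Dkk, Sfrp, Dvl, Axin and Tcf7 families, Lrp5, Lrp6 and 10 single genes), with earlier results of these data known. Of the 13272 gene symbols with a measured transcript, 40 were members. Each group value was the authors' estimate in FPKM, a count of sequenced fragments scaled for transcript length and for library size. RNAseq had been carried out on whole hippocampi of 8 rats labelled as Sprague-Dawley and aged 3 to 4 months, whereas the methods of the study name male Lister hooded rats of a younger age. All of the rats had lost both adrenal glands, and so their own supply of corticosterone. By the methods of the study they drank corticosterone in saline while they recovered from surgery, and plain saline in the hours before the infusion. The vehicle group (4 rats) had been infused with 0.45% saline and the CORT group (4 rats) with corticosterone-2-hydroxypropyl-beta-cyclodextrin at 0.75 mg/mL, both for 30 min from ZT 2, in the early light phase, and tissue was taken 2 h after the infusion began. The labels name no cyclodextrin in the vehicle, so the steroid and its carrier cannot be told apart. The deposited table gives 1 FPKM value per group and none per rat, so the spread between rats is not known, no test between groups was run, and the read depth behind a value is unknown.

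Wnt proteins are secreted lipid-modified ligands that bind Frizzled receptors and, in the branch that runs through beta-catenin, the co-receptors Lrp5 and Lrp6. Receptor activation stops a complex built on Axin and Apc from marking beta-catenin for destruction, and beta-catenin then switches on genes together with the transcription factors Lef1 and the Tcf7 family. In the adult hippocampus the pathway is known for its part in the birth of granule neurons in the dentate gyrus and in the making and strength of synapses, and in brain vessels for the upkeep of the blood-brain barrier.

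Of the 40 members, 1 was at least 1.5-fold higher in the CORT group (Fzd9) and 5 were at least 1.5-fold lower (Wnt6, Tcf7l2, Wnt5b, Lef1 and Apcdd1). Over all 13272 symbols, 1.78% were higher and 3.74% were lower by that fold, against 2.50% and 12.5% of the members. Lower values were more common among scarce genes, and 26 of the 40 members had a mean under 10 FPKM. Of these 26, 1 was higher (3.85%) and 4 were lower (15.4%), against 2.57% and 6.97% of the 6098 symbols at that level. Folds were taken as log2 of CORT over vehicle after 0.1 FPKM was added to both, a scale on which 1.5-fold is 0.58 and which understates the fold of genes with a low level. With 1 FPKM added in place of 0.1 FPKM, Fzd9 alone was higher and Tcf7l2 alone lower by 1.5-fold, 1 of the 40 members each, against 1.03% and 1.82% of all symbols. The median log2 fold change was -0.02 over the members and 0.02 over all symbols, and 24 of the 40 members lay within 0.25 of 0. Just inside the 1.5-fold limit stood Apcdd1 with a log2 fold change of -0.60, and just outside it stood Fzd6 with -0.53 and Axin2 with -0.49. Because the groups are single values, each of these is a difference between group values without a replicate check.

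**Figure D1:**
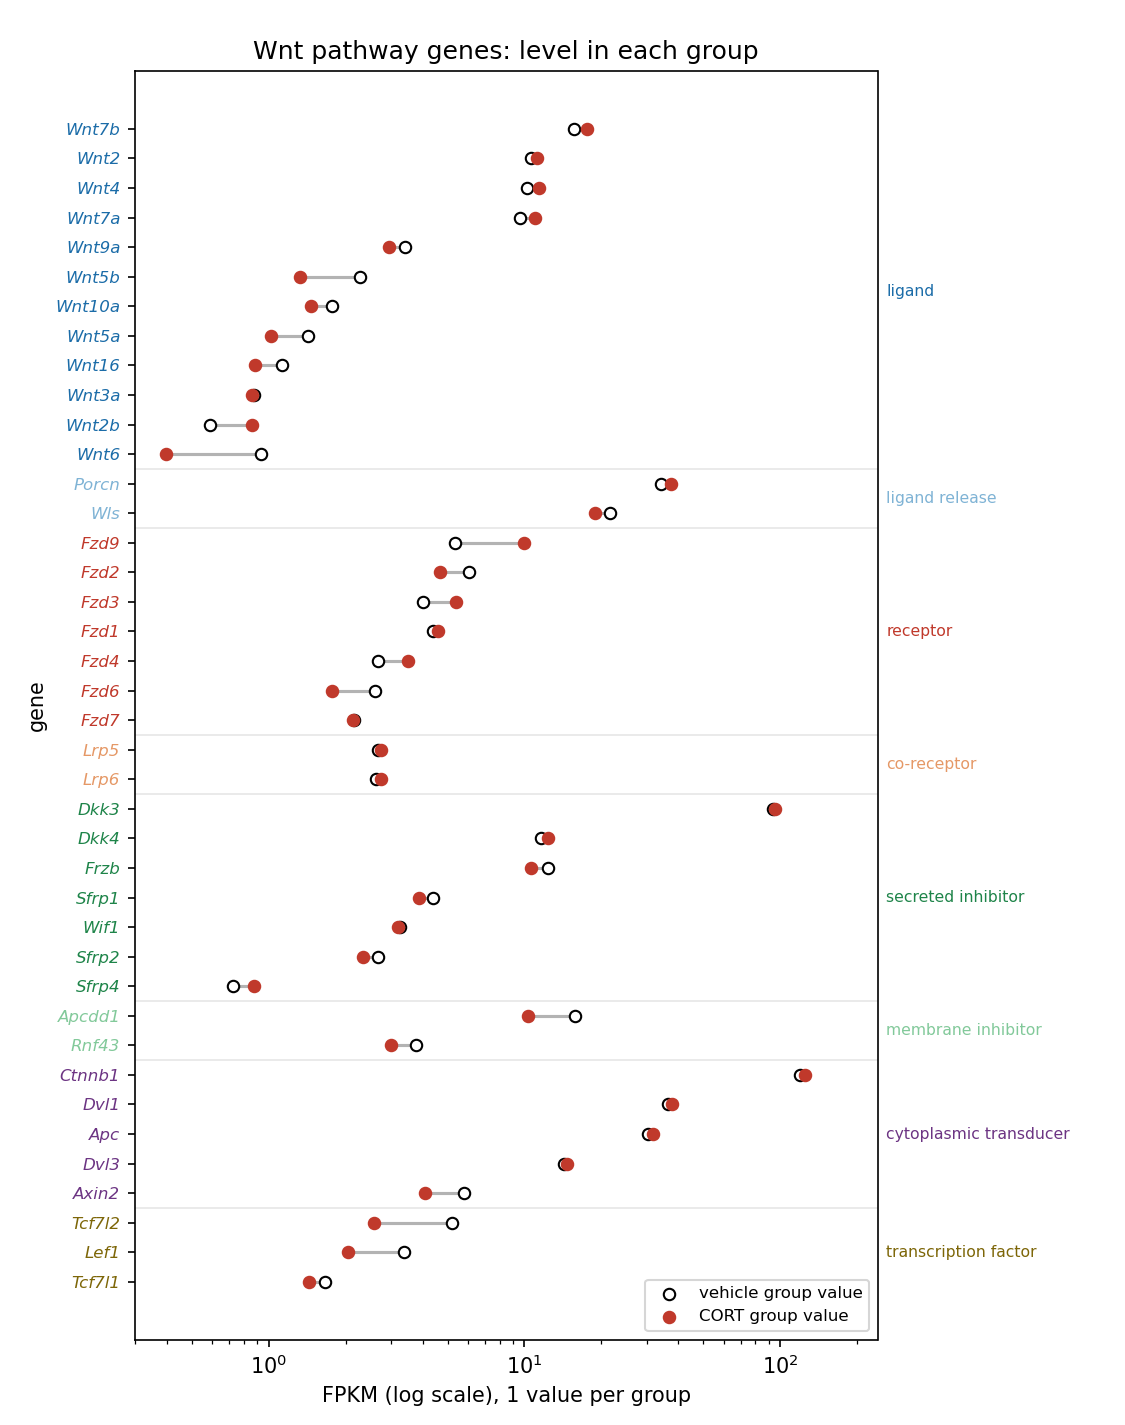
FPKM of each of the 40 Wnt pathway genes on a log scale, with the open circle for the vehicle group value and the red circle for the CORT group value, ordered by role and level. The circles of the abundant genes nearly coincide, and the widest gaps are those of Wnt6 (0.933 and 0.398 FPKM), Tcf7l2 (5.22 and 2.59 FPKM) and Fzd9 (5.37 and 9.92 FPKM).

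Among the 12 ligands, 4 made up most of the ligand RNA. Wnt7b, a ligand that acts on brain vessels and on dendrites, was at 15.6 FPKM in vehicle rats and 17.6 FPKM in CORT rats. Wnt2 was at 10.6 FPKM in vehicle rats and 11.2 FPKM in CORT rats. Wnt4 was at 10.2 FPKM in vehicle rats and 11.4 FPKM in CORT rats. Wnt7a, a ligand known to promote the assembly of presynaptic terminals, was at 9.63 FPKM in vehicle rats and 11.0 FPKM in CORT rats. All of these 4 were slightly higher in the CORT group, with log2 fold changes between 0.09 and 0.19, and none reached 1.5-fold. Their levels summed to 46.0 FPKM in vehicle rats and 51.2 FPKM in CORT rats.

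The other 8 ligands, each with a mean of the 2 group values under 5 FPKM (a split made after the values were seen), summed to 12.4 FPKM in vehicle rats and 9.76 FPKM in CORT rats, and 7 of them were lower in the CORT group. Among all symbols, 310 of 477 under 1 FPKM and 1175 of 1990 between 1 and 3 FPKM were lower by any amount. Between 3 and 10 FPKM, 1775 of 3631 were. Wnt6 went from 0.933 FPKM in vehicle rats to 0.398 FPKM in CORT rats, a log2 fold change of -1.05. Its level lay near the bottom of the table, and with 1 FPKM added to both groups the log2 fold change was -0.47. Of the 477 symbols with a mean under 1 FPKM, 26.6% were at least 1.5-fold lower and 7.76% at least 1.5-fold higher in the CORT group, so values past 1.5-fold were common at that level. Wnt5b was at 2.27 FPKM in vehicle rats and 1.33 FPKM in CORT rats, a log2 fold change of -0.73. With 1 FPKM added it was -0.49, under 1.5-fold. Of the 1990 symbols between 1 and 3 FPKM, 9.10% were lower by 1.5-fold.

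Wnt5a, which like Wnt5b mostly signals without beta-catenin, was at 1.43 FPKM in vehicle rats and 1.02 FPKM in CORT rats (log2 fold change -0.45). Wnt16 was at 1.12 FPKM in vehicle rats and 0.880 FPKM in CORT rats (-0.32). Wnt10a was at 1.77 FPKM in vehicle rats and 1.46 FPKM in CORT rats (-0.26). These 3 were lower in the CORT group by less than 1.5-fold. Wnt9a was at 3.41 FPKM in vehicle rats and 2.94 FPKM in CORT rats (log2 fold change -0.21). Wnt3a, the ligand of the embryonic cortical hem that drives hippocampal development, was at 0.877 FPKM in vehicle rats and 0.863 FPKM in CORT rats (-0.02). Wnt2b alone among these 8 was higher in the CORT group, at 0.591 FPKM in vehicle rats and 0.863 FPKM in CORT rats (log2 fold change 0.48). The Wnt2b row carries a locus that it shares with rows of St7l and Capza1, which are more abundant, and the authors' assignment of reads between them cannot be checked from the table.

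Wnt6 and Wnt10a are neighbours on chromosome 9 of rn6, at 82033542 to 82047166 and 82053580 to 82066047, with 6413 bases between them. Wnt3a (45598911 to 45638035) and Wnt9a (45659142 to 45681393) are neighbours on chromosome 10, with 21106 bases between them. Both genes of each pair had lower values in the CORT group, by unequal amounts, and Wnt3a was nearly level (log2 fold change -0.02). Wnt5b lies on chromosome 4 between 151500956 and 151516894.

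Markers of meningeal fibroblasts, cells of the membranes that cover the hippocampus, were also lower in the CORT group. Of the 13 of 15 listed markers with a row, 7 were at least 1.5-fold lower and none higher, their median log2 fold change was -0.87, beside 3.74% lower and a median of 0.02 over all symbols, and their summed level was 212 FPKM in vehicle rats and 156 FPKM in CORT rats. The lowest marker, Foxc1, had a mean of 1.24 FPKM, and Dcn was at 18.8 FPKM in vehicle rats and 20.0 FPKM in CORT rats. Their part in the lower values of Wnt5b, Wnt6 and the other scarce ligands was not tested. In whole tissue, fewer cells of a type and less RNA per cell cannot be told apart.

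Release of Wnt ligands needs Porcn, the enzyme that attaches their lipid, and Wls, the carrier that takes them to the cell surface. Porcn was at 34.0 FPKM in vehicle rats and 37.3 FPKM in CORT rats, a log2 fold change of 0.13. Wls was at 21.7 FPKM in vehicle rats and 18.8 FPKM in CORT rats, a log2 fold change of -0.20. By the most abundant transcript of each gene, both were above every ligand, and their differences pointed in opposite directions. A second, less abundant transcript of Porcn was lower in the CORT group (log2 fold change -0.11). With the 2 transcripts of Porcn summed, its log2 fold change was 0.05.

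The 7 Frizzled receptors had means between 2.15 and 7.65 FPKM, and they differed among themselves more than the ligands of high level did. Fzd9, the frizzled gene of chromosome 12 (24473980 to 24476295 of rn6), was at 5.37 FPKM in vehicle rats and 9.92 FPKM in CORT rats. That is a log2 fold change of 0.87, or 1.83-fold, and it made Fzd9 the most abundant of the 7 receptors in the CORT group, whereas Fzd2 was the most abundant in the vehicle group. Fzd9 is known from neural progenitors and from synapses of hippocampal neurons. Of the 3631 symbols with a mean between 3 and 10 FPKM, 1.49% were at least 1.5-fold higher in the CORT group. With 1 FPKM added, the log2 fold change of Fzd9 was 0.78, still past 1.5-fold.

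Fzd3, a receptor of the planar polarity branch that guides axons, was at 4.03 FPKM in vehicle rats and 5.42 FPKM in CORT rats (log2 fold change 0.42). Fzd4, the endothelial receptor for norrin and Wnt7 ligands, was at 2.68 FPKM in vehicle rats and 3.50 FPKM in CORT rats (0.37). Fzd1 was at 4.38 FPKM in vehicle rats and 4.61 FPKM in CORT rats (0.07). These 3 receptors were higher in the CORT group without reaching 1.5-fold. Fzd6, another receptor tied to planar polarity, was at 2.60 FPKM in vehicle rats and 1.77 FPKM in CORT rats (log2 fold change -0.53). Fzd2 was at 6.09 FPKM in vehicle rats and 4.69 FPKM in CORT rats (-0.37). Fzd7 was at 2.16 FPKM in vehicle rats and 2.14 FPKM in CORT rats (-0.01). The family was thus divided, with 4 members higher and 3 lower in the CORT group, and its summed level was 27.3 FPKM in vehicle rats and 32.0 FPKM in CORT rats, a gap of about the size of that of Fzd9 alone.

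The co-receptors were scarce and nearly level between groups. Lrp5 was at 2.66 FPKM in vehicle rats and 2.75 FPKM in CORT rats, and Lrp6 at 2.62 FPKM in vehicle rats and 2.75 FPKM in CORT rats. Their log2 fold changes were 0.04 and 0.06.

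**Figure D2:**
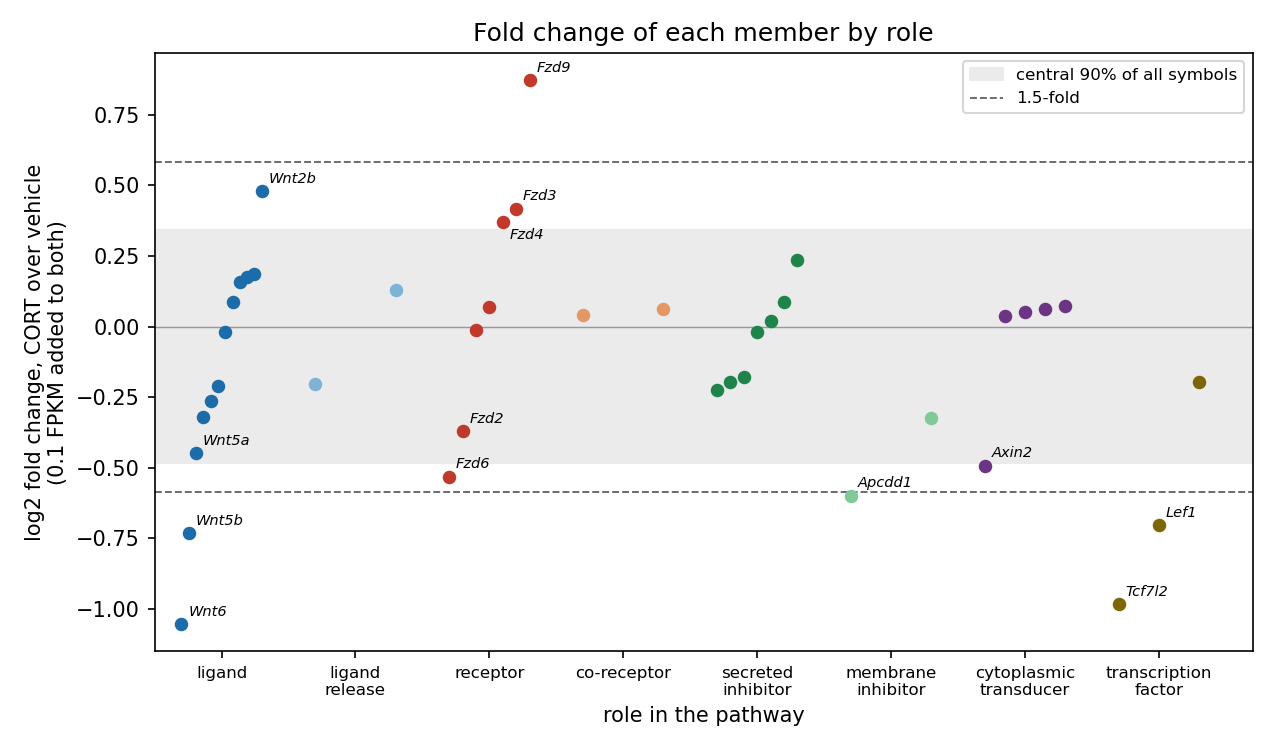
Log2 fold change of CORT over vehicle for each member, by role, with the central 90% of all symbols in grey (-0.48 to 0.34) and 1.5-fold as dashed lines. Fzd9 stands above the upper line at 0.87, Wnt6, Wnt5b, Apcdd1, Tcf7l2 and Lef1 stand below the lower line, and the secreted inhibitors lie between -0.22 and 0.24.

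The 7 secreted inhibitors differed little, with log2 fold changes between -0.22 and 0.24 and summed levels of 129 FPKM in vehicle rats and 128 FPKM in CORT rats. Dkk3, a divergent member of the Dickkopf family and an abundant neuronal transcript, supplied most of this, at 93.8 FPKM in vehicle rats and 95.2 FPKM in CORT rats. Dkk4, which binds Lrp5 and Lrp6, was at 11.6 FPKM in vehicle rats and 12.3 FPKM in CORT rats. Frzb, a decoy receptor that resembles the ligand-binding part of a Frizzled, was at 12.4 FPKM in vehicle rats and 10.6 FPKM in CORT rats. The other decoys of that kind were scarcer. Sfrp1 was at 4.40 FPKM in vehicle rats and 3.88 FPKM in CORT rats, Sfrp2 at 2.68 FPKM in vehicle rats and 2.33 FPKM in CORT rats, and Sfrp4 at 0.726 FPKM in vehicle rats and 0.872 FPKM in CORT rats. Wif1, which binds Wnt ligands directly, was at 3.25 FPKM in vehicle rats and 3.20 FPKM in CORT rats.

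Both inhibitors that act at the membrane were lower in the CORT group. Apcdd1, a membrane glycoprotein that blocks Wnt signalling and is itself switched on by it, was at 15.7 FPKM in vehicle rats and 10.3 FPKM in CORT rats, a log2 fold change of -0.60. It lies on chromosome 18 of rn6 between 58270409 and 58301002. It was the only 1 of the 14 members with a mean of at least 10 FPKM to pass 1.5-fold, and 0.99% of the 7174 symbols at or above that level were lower by as much. With 1 FPKM added its log2 fold change was -0.56, under 1.5-fold. The other 13 lay between -0.22 and 0.19. Rnf43, a ubiquitin ligase that removes Frizzled receptors from the cell surface and is also a Wnt target, was at 3.78 FPKM in vehicle rats and 3.00 FPKM in CORT rats, a log2 fold change of -0.32. Apcdd1 is known from brain endothelium. Of the 13 of 14 endothelial markers with a row, 1 was at least 1.5-fold lower (Kdr) and none higher, their median log2 fold change was -0.15, and their summed level was 172 FPKM in vehicle rats and 174 FPKM in CORT rats. Of these 13, 10 were lower and 3 higher by any amount, and Slc2a1, the most abundant, was at 46.1 FPKM in vehicle rats and 62.5 FPKM in CORT rats.

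**Figure D3:**
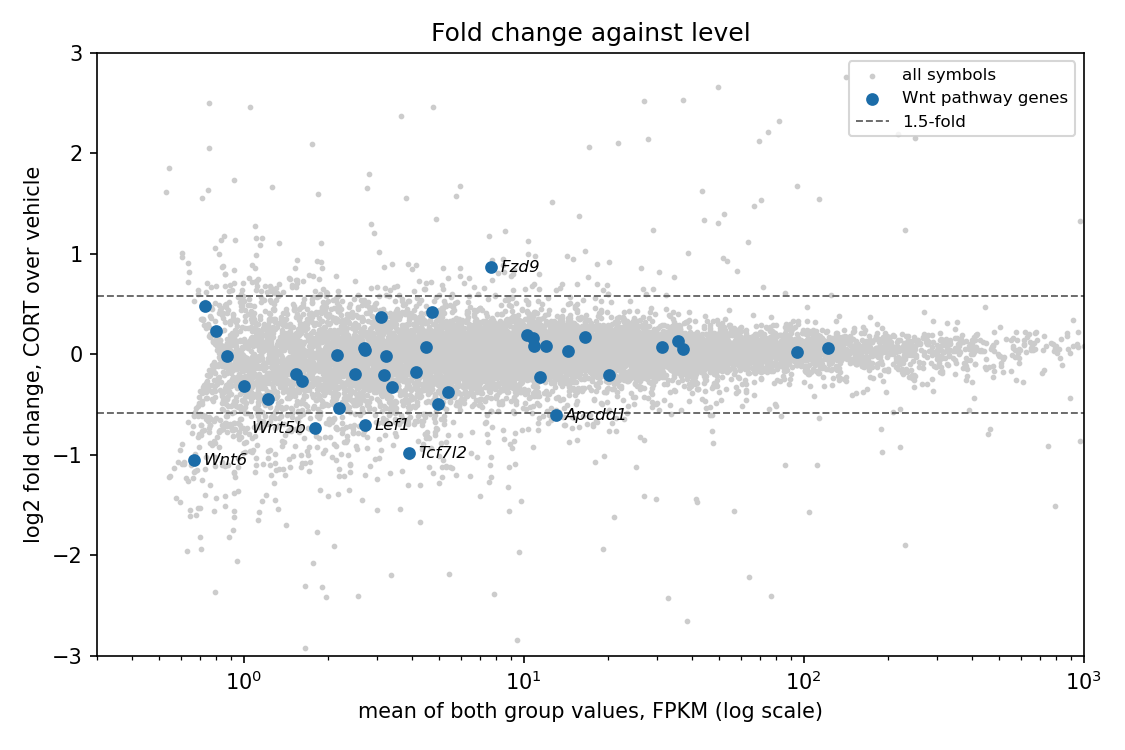
Log2 fold change against the mean of both group values in FPKM (log scale) for all symbols (grey) and the Wnt pathway genes (blue), with 1.5-fold as dashed lines and 58 symbols outside the axes. The grey cloud widens at low levels, where Wnt6 lies, and the members at 10 FPKM and above lie close to 0 except Apcdd1.

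The cytoplasmic carriers of the signal were abundant and nearly level. Ctnnb1, which encodes beta-catenin, was at 120 FPKM in vehicle rats and 125 FPKM in CORT rats (log2 fold change 0.06), and its mean was above that of 94.7% of all symbols. Dvl1, a Dishevelled protein that relays the signal from the receptor, was at 36.3 FPKM in vehicle rats and 37.6 FPKM in CORT rats (0.05). Dvl3 was at 14.2 FPKM in vehicle rats and 14.6 FPKM in CORT rats (0.04). Apc, a scaffold of the destruction complex, was at 30.3 FPKM in vehicle rats and 31.9 FPKM in CORT rats (0.07). All 4 were higher in the CORT group by at most 0.07 on the log2 scale. Axin2 stood apart from them, at 5.80 FPKM in vehicle rats and 4.09 FPKM in CORT rats, a log2 fold change of -0.49 that did not reach 1.5-fold. Axin2 limits the pathway inside the cell and is at the same time the target gene most often used to read beta-catenin activity.

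The promoter of Axin2 is shown because it was the only 1 of 29 member promoters to hold the letters CTTTGAT, a spelling of the core recognised by the Tcf7 family and Lef1. Other spellings of that core were not searched and are not marked. Promoters were taken from RefSeq (GRCr8 build) as 250 bases before and 50 bases after a gene's start, and both strands were searched. Of the 9624 symbols with such a promoter, 2.43% held the letters, against 3.45% of the members. The Axin2 promoter lies at chr10:94398535-94398834 on the plus strand, and the match begins 132 bases before the start. Those of Fzd9 (chr12:27063390-27063689, plus strand) and Tcf7l2 (chr1:264791085-264791384, plus strand), the members with the largest log2 fold change in each direction among those with a mean of at least 1 FPKM, are shown beside it and hold no match. Capitals mark the match.
Axin2: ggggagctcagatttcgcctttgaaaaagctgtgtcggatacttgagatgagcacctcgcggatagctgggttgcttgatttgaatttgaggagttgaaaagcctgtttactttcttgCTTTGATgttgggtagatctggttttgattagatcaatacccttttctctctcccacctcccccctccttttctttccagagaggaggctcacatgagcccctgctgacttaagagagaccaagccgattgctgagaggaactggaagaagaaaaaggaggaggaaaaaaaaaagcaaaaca
Fzd9: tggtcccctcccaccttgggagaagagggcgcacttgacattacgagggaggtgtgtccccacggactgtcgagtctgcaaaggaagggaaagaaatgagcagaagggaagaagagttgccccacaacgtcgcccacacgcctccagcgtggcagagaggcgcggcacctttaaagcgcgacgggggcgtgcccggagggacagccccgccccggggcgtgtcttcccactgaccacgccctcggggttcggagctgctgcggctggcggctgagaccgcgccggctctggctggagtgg
Tcf7l2: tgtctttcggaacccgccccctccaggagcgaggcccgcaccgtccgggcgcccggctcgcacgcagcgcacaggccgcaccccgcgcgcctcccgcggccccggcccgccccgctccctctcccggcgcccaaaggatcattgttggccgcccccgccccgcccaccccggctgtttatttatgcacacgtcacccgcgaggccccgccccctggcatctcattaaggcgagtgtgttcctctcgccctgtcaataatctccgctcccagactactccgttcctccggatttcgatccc
A full site of the corticosteroid receptors, spelled GNACA, any 3 bases and TGTNC, was in none of the 29 member promoters and in 0.239% of all of them. A match is a run of letters in a short window and no evidence of binding, and no match says nothing of sites elsewhere.

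All 3 transcription factors of the pathway were lower in the CORT group. Tcf7l2, on chromosome 1 of rn6 between 276659541 and 276730514, was at 5.22 FPKM in vehicle rats and 2.59 FPKM in CORT rats, a log2 fold change of -0.98. Lef1, on chromosome 2 between 236233238 and 236345056, was at 3.38 FPKM in vehicle rats and 2.04 FPKM in CORT rats, a log2 fold change of -0.70. Tcf7l1, which mostly represses Wnt targets, was at 1.65 FPKM in vehicle rats and 1.43 FPKM in CORT rats, a log2 fold change of -0.20. Their summed level was 10.3 FPKM in vehicle rats and 6.06 FPKM in CORT rats. With 1 FPKM added to both groups, the log2 fold changes were -0.79 for Tcf7l2 and -0.53 for Lef1, so Lef1 was then under 1.5-fold. Of all symbols between 3 and 10 FPKM, where Tcf7l2 lies, 3.22% were lower by 1.5-fold, and of those between 1 and 3 FPKM, where Lef1 lies, 9.10% were.

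Tcf7l2 is a well known marker of the thalamus and habenula, which lie beside the hippocampus, and of the oligodendrocyte lineage, and Lef1 is expressed in thalamus, in brain vessels and in neural progenitors. Of the 14 of 18 thalamic or habenular markers with a row, 7 were at least 1.5-fold lower and 1, Tnnt1, was higher, beside 3.74% lower and 1.78% higher over all symbols. Their median log2 fold change was -0.53, and their summed level was 121 FPKM in vehicle rats and 97.6 FPKM in CORT rats. Prkcd, a thalamic marker, was at 10.7 FPKM in vehicle rats and 4.53 FPKM in CORT rats, and Tac3, the most abundant of the list, was at 29.4 FPKM in vehicle rats and 30.6 FPKM in CORT rats. The lowest log2 fold changes of the list were those of Chrna3 (-2.41, from 3.40 to 0.557 FPKM) and Gpr151 (-2.31, from 3.24 to 0.573 FPKM). Of the 7 lower markers, these had means of 1.98 and 1.91 FPKM, and Chrnb4 and Synpo2 of 0.935 and 0.817 FPKM. The others, Prkcd, Slc17a6 and Zic1, had means of 7.62, 7.28 and 8.97 FPKM. Lower by 1.5-fold were 26.6% of all symbols under 1 FPKM, 9.10% between 1 and 3 FPKM and 3.22% between 3 and 10 FPKM. By any amount, 10 of the 14 were lower and 4 higher in the CORT group. The authors had removed transcripts with too few reads, so no marker with a row could be at 0 in both groups. Of the 12 oligodendrocyte markers, 1 was lower (Opalin) and 1 higher (Aspa) by 1.5-fold, with a median of -0.24 and a summed level of 5760 FPKM in vehicle rats and 4812 FPKM in CORT rats. Of the 10 of 12 markers of dividing cells and immature granule neurons with a row, 6 were lower by 1.5-fold and none higher, with a median of -0.80 and a summed level of 39.8 FPKM in vehicle rats and 30.6 FPKM in CORT rats. The 6 were the cell-cycle genes Mki67, Top2a, Cdk1, Ccnb1 and Ccna2 and the guidance gene Draxin, whereas the markers of immature neurons Dcx, Igfbpl1, Calb2 and Sox11 had log2 fold changes of -0.04, -0.12, -0.20 and 0.32. All 6 were scarce, with means between 0.814 FPKM (Draxin) and 1.77 FPKM (Cdk1). Of all symbols, 26.6% of those under 1 FPKM and 9.10% of those between 1 and 3 FPKM were lower by 1.5-fold. Calb2 also stands among the thalamic or habenular markers. The part of these cells in the lower values of Tcf7l2 and Lef1 was not tested.

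The label of the tissue was checked in the same way. Of 12 markers of hippocampal neurons, 9 had a row, and their summed level was 1064 FPKM in vehicle rats and 1134 FPKM in CORT rats, with a median log2 fold change of 0.05. Camk2a, the most abundant, was at 593 FPKM in vehicle rats and 667 FPKM in CORT rats, and of the 9 markers 6 were higher and 3 lower. Zbtb20, at a mean of 2.13 FPKM the scarcest of these, was the only 1 past 1.5-fold, and it was higher in the CORT group. Medians were -0.02 for 13 choroid plexus markers, -0.03 for 10 astrocyte markers and -0.22 for 10 microglial markers. Summed levels of these 3 lists were 7017, 3108 and 344 FPKM in vehicle rats and 6981, 2711 and 296 FPKM in CORT rats. Of these lists, none of the choroid plexus markers passed 1.5-fold, 2 astrocyte markers were lower (Gfap and Aldh1l1) and 1 microglial marker was higher (Tmem119). Gfap was at 970 FPKM in vehicle rats and 517 FPKM in CORT rats, and of the 10 astrocyte markers 5 were higher and 5 lower. Each summed level is weighted to the most abundant genes of its list.

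A second transcript was listed for 5 members. For Wnt4 it was at 7.52 FPKM in vehicle rats and 8.74 FPKM in CORT rats, close to the first in level and in log2 fold change (0.21). For Lrp6 it was at 2.40 FPKM in vehicle rats and 2.78 FPKM in CORT rats, and for Porcn at 17.3 FPKM in vehicle rats and 16.0 FPKM in CORT rats. The second transcripts of Wnt7b and Apc departed more from the first. That of Wnt7b was at 0.552 FPKM in vehicle rats and 1.53 FPKM in CORT rats (log2 fold change 1.32), a small part of the gene's level. That of Apc was at 3.68 FPKM in vehicle rats and 5.26 FPKM in CORT rats (log2 fold change 0.51). How the authors' estimate divided reads between transcripts of a gene cannot be checked from the table.

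Of 84 listed genes that are not members, 71 had a row, and none was at least 1.5-fold higher and 1 was at least 1.5-fold lower in the CORT group, against 1.78% and 3.74% of all symbols. That gene, Draxin, an axon guidance protein that also inhibits Wnt signalling, was at 1.05 FPKM in vehicle rats and 0.576 FPKM in CORT rats, and it was named after its value was seen. Draxin is also among the markers of dividing cells and immature granule neurons. The median log2 fold change of the 71 was 0.05, beside 0.02 over all symbols. By function, the medians were 0.00 for 8 receptors and co-receptors and 0.06 for 7 agonists and inhibitors at or outside the cell surface. They were 0.10 for 23 cytoplasmic genes, 0.10 for 17 nuclear genes and -0.04 for 16 genes of planar cell polarity. Gsk3b, the kinase that marks beta-catenin for destruction, was at 15.1 FPKM in vehicle rats and 17.5 FPKM in CORT rats. The 7 agonists and inhibitors lay between -0.77 (Draxin) and 0.44 (Tpbg), and 2 of them were within 0.25 of 0. Sostdc1, an inhibitor that binds Lrp5 and Lrp6, had a log2 fold change of -0.29, Rspo1, a secreted agonist, 0.27, and Notum, an enzyme that removes the lipid of Wnt ligands, -0.26. Rspo2, another agonist, was at 24.3 FPKM in vehicle rats and 25.4 FPKM in CORT rats.

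Of 25 genes that are often used as targets of beta-catenin, 19 had a row and were not members, and 13 of these 19 were lower and 6 higher in the CORT group. Members that are themselves Wnt targets, such as Axin2, Apcdd1 and Rnf43, were counted only as members and are not among the 19. Over all 13272 symbols, 6076 were lower and 7195 higher. None of the 19 targets was at least 1.5-fold higher and 3 were at least 1.5-fold lower, with a median log2 fold change of -0.19, while 3.74% of all symbols were lower by that fold and their median was 0.02. Sox9, a transcription factor of astrocytes and neural stem cells, was at 6.86 FPKM in vehicle rats and 3.70 FPKM in CORT rats (log2 fold change -0.87). Ccnd1, the cyclin of entry into the cell cycle, was at 13.9 FPKM in vehicle rats and 8.92 FPKM in CORT rats (-0.63). Edn1, an endothelial peptide, was at 2.23 FPKM in vehicle rats and 1.43 FPKM in CORT rats (-0.61). Nkd1, an inhibitor of the pathway that is induced by it, stood just outside the limit, at 14.5 FPKM in vehicle rats and 9.81 FPKM in CORT rats (-0.56). Birc5, a gene of cell division, had a log2 fold change of -0.53, and that of Bmp4 was -0.38. Of the 19 targets, 12 lay within 0.25 of 0, and among these Myc was at 3.24 FPKM in vehicle rats and 3.15 FPKM in CORT rats. Sox9, Ccnd1 and Edn1 are also expressed in astrocytes, dividing cells and endothelium, whose markers are given above, and the part of these cells was not tested. Nkd1, Notum and Rspo3 stand both in this list and among the other pathway genes.

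**Figure D4:**
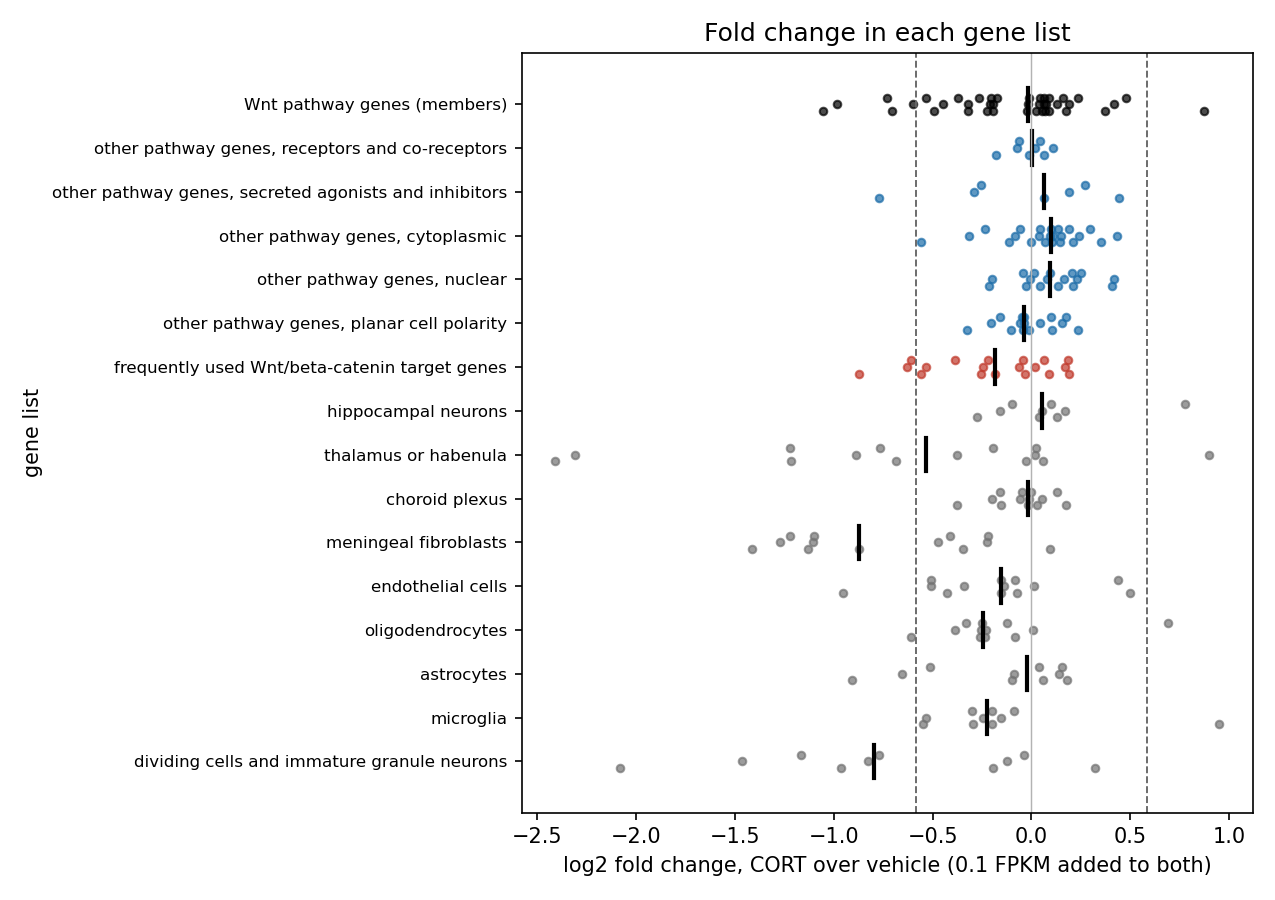
Log2 fold change of CORT over vehicle for each gene (points) and the median (bar) of the members (black), of the other pathway genes (blue), of the target genes (red) and of the cell type markers (grey), with 1.5-fold as dashed lines. Medians of the other pathway genes lie between -0.04 and 0.10, that of the targets at -0.19, and those of the meningeal, dividing-cell and thalamic or habenular markers between -0.87 and -0.53.

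By level, 11 of the 14 members with a mean of at least 10 FPKM were higher in the CORT group, and 18 of the 26 members under 10 FPKM were lower. Of all symbols, 4357 of 7174 at or above 10 FPKM were higher and 3260 of 6098 below it were lower. The medians were 0.07 and -0.20 on the log2 scale. Among all symbols the medians were 0.03 at or above 10 FPKM and -0.02 below it.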

How the data were processed

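RNAseq libraries of 8 rat hippocampi were made with a stranded total RNA kit. Per the labels, the submitters used CASAVA 1.8.2, TopHat2 2.0.10 and Cuffdiff 2.2.0 with the rn6 genome. The authors deposited, for 16266 Ensembl transcripts, a single FPKM value for each group after geometric normalization of the libraries and removal of transcripts under a minimum alignment count. That removal can take out the scarcest genes. The deposited fold changes, test statistics, p-values and q-values hold the authors' own comparison and were not used. The 2 FPKM columns were matched to the groups by the group names in the table.

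The members and lists were chosen with earlier results of these data known. Of 57 RefSeq symbols that match the rule, 40 had a row, and the other 17, among them Axin1, Dvl2, Tcf7 and Znrf3, were not analysed here. Where a symbol had several transcripts, that with the highest mean FPKM was used. The computed quantity was log2 of CORT over vehicle with a pseudocount of 0.1 FPKM, counted past 1.5-fold without a filter on low values. Because each group is 1 value, no test was run and no interval could be given, and each list was described by its counts and median, to be read against the shares and median of all 13272 symbols. Every member was named, as was each target past 1.5-fold with a mean of at least 1 FPKM. Marker lists covered hippocampal neurons, thalamus or habenula, choroid plexus, meningeal fibroblasts, endothelial cells, oligodendrocytes, astrocytes, microglia, and dividing cells with immature granule neurons. The computation was tested on simulated data. Python 3.11.15, numpy 2.4.6, pandas 2.3.3 and matplotlib 3.10.9 were used.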

Additional observations from a re-analysis of the deposited data

How the results depend on the processing

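The count of lower members was the value that depended most on the pseudocount. With 1 FPKM added to both groups, 1 member was at least 1.5-fold lower (Tcf7l2) in place of 5, and the count of higher members was 1 as before (Fzd9). Over all symbols 1.82% were lower and 1.03% higher in that setting. At a log2 fold change of 0.32 in either direction, 4 members were higher and 10 lower, against 5.64% and 9.05% of all symbols, and at 2-fold 0 were higher and 1 was lower, against 0.603% and 1.28%. Without a pseudocount, with the rows of a symbol summed, with a mean of at least 1 FPKM required, and centred on the median of all symbols, 1 member was higher and 4 or 5 were lower. The median of the members lay between -0.03 and -0.01 in the settings run. No member's log2 fold change took the other sign without a pseudocount, with 1 FPKM added, with rows summed or centred, and 9 of the 40 moved by at least 0.1 with 1 FPKM added. No paired analysis was possible because each group is given as a single pooled value. Leaving out each rat was not run for the same reason, and with no reads per rat no limit of detection can be given.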
